A study of Mus musculus with 4 samples.

Results

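The genes that remodel the extracellular matrix were examined in uteri of pregnant mice with and without the MHC class Ib molecule Qa-2. The set holds the protein-coding genes of the deposited counts whose GRCm38 symbol begins with Mmp, Timp, Adamts or Adamtsl followed by a digit, together with Lox and Loxl1 to Loxl4. The rule uses names only and no measured value. It gave 55 of the 55421 genes in the files, with 22 matrix metalloproteases, 4 tissue inhibitors of metalloproteases, 19 ADAMTS proteases, 5 ADAMTS-like proteins and 5 lysyl oxidases. Mmp1a matched by name and was left out, because GENCODE M21 lists it as a polymorphic pseudogene.

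Uteri were collected at E18.5 from 2 WT mice of the strain C57BL/6J and from 2 Qa-2- mice of the strain B6.Cg-H2b3/FlaCmwJ, which is also called B6.K1. Mating was syngeneic in both groups, so that the fetuses of the Qa-2- mice also lacked Qa-2, and had been set up when the mice were 8 to 12 weeks old. No mouse of either group was treated. B6.K1 is a congenic strain that carries another H2 segment on the C57BL/6 background, and the strains came from different breeders, so lack of Qa-2, the rest of the exchanged segment and the origin of the mice cannot be told apart in this comparison. For RNA, a milligram amount of frozen uterine tissue was powdered and lysed, which the paper calls whole uterine lysates. The paper does not state which part of the uterus this tissue came from. From each mouse 1 poly(A)-selected, strand-specific library was sequenced.

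Matrix metalloproteases are zinc-dependent enzymes that are made as inactive proenzymes and cut collagens, laminins, elastin and many cell surface proteins. TIMPs bind their active site and block it. ADAMTS proteases trim the ends of procollagens or cut large proteoglycans such as versican and aggrecan, ADAMTS-like proteins share their accessory domains without the protease domain, and lysyl oxidases are copper-dependent enzymes that crosslink collagen and elastin. In the pregnant uterus these genes are known for their part in decidual and vascular remodelling, in growth of the muscle wall and in the return of the tissue to its resting size after birth.

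The labels were first checked against the genes that encode Qa-2. H2-Q6 had 4204 and 1192 counts in the WT libraries against 3 and 3 in the Qa-2- libraries, and H2-Q7 had 6318 and 1251 against 4 and 2. Total counts lay between 33286390 and 41041299 per library, which puts 3 counts at 0.0747 to 0.0858 CPM (counts scaled to a common library size by TMM), a floor that covers counting error only. Of the 14492 genes that reached 1 CPM in 2 or more libraries, none was called by edgeR (quasi-likelihood test, Benjamini-Hochberg adjusted p under 0.05), with 0.17 as the smallest adjusted p. Before adjustment, 1172 genes with higher values in WT and 1027 with lower ones had a p under 0.05, and DESeq2 called 404 and 296 genes. An exact two-sided permutation test on 1 gene cannot go below p = 0.33 with 2 mice per group. The labelled tissue was checked with marker genes. All 7 smooth muscle markers, all 7 stroma markers and all 7 epithelium markers of the uterus passed the filter, whereas 5 of 6 trophoblast markers did not.

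The set divides in the letters just upstream of its genes. The window from 250 bases before to 50 bases after the start was given by RefSeq (GRCm38.p6) for 36 of the 55 genes, in 39 windows, and was searched on both strands for 3 motifs. The AP-1 core, recognised by Fos and Jun proteins, was spelled TGANTCA. The TATA box was spelled TATAAA. The GC box, recognised by Sp1, was spelled GGGCGG. None of these motifs can share a base with another. The AP-1 core stood in 7 of the 39 windows (17.9%, against 7.81% of all 32851 windows), and all 7 belong to a cluster of 9 Mmp genes that spans 427.07 kb of chromosome 9. The TATA box stood in 11 windows (28.2% against 13.6%), of which 8 belong to that cluster. The GC box stood in 23 windows (59.0% against 35.7%) and in none of the cluster. Both the AP-1 core and the TATA box were found in 7 windows (17.9% against 1.54%), those of Mmp7, Mmp3, Mmp10, Mmp12, Mmp13, Mmp20 and Mmp1b. A match is a description of the letters and not a measured site. The stretches from 130 bases before the start to 20 bases after it are shown for 4 genes of the cluster, because they hold the highest mean TPM of the whole set, which 1 library decides, and 3 of the low ones, and for Mmp14 and Mmp11, which had the highest mean TPM and the largest fold change of the Mmp genes outside it. Sequences are from RefSeq, run 5′ to 3′ on the strand of the gene, and carry every match to the 3 motifs in capitals. For Mmp11 and Mmp12 the RefSeq start lies inside the span of the counted gene.
Mmp7 (chr9:7691960-7692109, plus strand): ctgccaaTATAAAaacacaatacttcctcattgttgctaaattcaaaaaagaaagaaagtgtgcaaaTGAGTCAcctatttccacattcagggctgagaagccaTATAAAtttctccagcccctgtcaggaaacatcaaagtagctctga
Mmp10 (chr9:7502212-7502361, plus strand): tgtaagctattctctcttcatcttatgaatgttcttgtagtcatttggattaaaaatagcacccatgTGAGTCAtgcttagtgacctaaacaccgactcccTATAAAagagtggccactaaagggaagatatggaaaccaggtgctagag
Mmp3 (chr9:7445692-7445841, plus strand): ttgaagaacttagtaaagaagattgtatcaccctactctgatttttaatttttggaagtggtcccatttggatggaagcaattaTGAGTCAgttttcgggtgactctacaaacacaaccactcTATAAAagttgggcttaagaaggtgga
Mmp12 (chr9:7347244-7347393, plus strand): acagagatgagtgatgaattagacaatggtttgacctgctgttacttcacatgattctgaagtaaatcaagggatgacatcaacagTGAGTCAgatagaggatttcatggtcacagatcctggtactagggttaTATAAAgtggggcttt
Mmp14 (chr14:54431468-54431617, plus strand): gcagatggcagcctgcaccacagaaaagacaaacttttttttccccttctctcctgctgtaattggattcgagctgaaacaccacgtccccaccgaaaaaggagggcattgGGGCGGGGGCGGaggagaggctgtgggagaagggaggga
Mmp11 (chr10:75932483-75932632, minus strand): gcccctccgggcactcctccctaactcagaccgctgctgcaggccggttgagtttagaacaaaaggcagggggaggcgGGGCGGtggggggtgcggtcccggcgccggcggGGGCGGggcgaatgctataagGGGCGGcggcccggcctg

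Compared per length of the gene, in TPM (counts per base of the gene, scaled to a common total), the set was led by a protease and an inhibitor. Mmp7, matrilysin, a small protease that epithelia secrete, had the highest mean over the 4 libraries, at 975 TPM. Timp2, a soluble inhibitor that also takes part in the activation of proMMP2, followed at 844 TPM. Lox with 292 TPM, Mmp14 with 290.5 TPM, Loxl1 with 255.5 TPM, Adamts1 with 254.3 TPM and Mmp2 with 225 TPM came next. The lead of Mmp7 came from Qa-2- replicate 2, with 2080 TPM against 552 TPM for Timp2. In the other 3 libraries Timp2 was above Mmp7, with 953, 1070 and 801 TPM against 808, 395 and 618 TPM in WT replicates 1 and 2 and Qa-2- replicate 1.

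**Figure D1:**
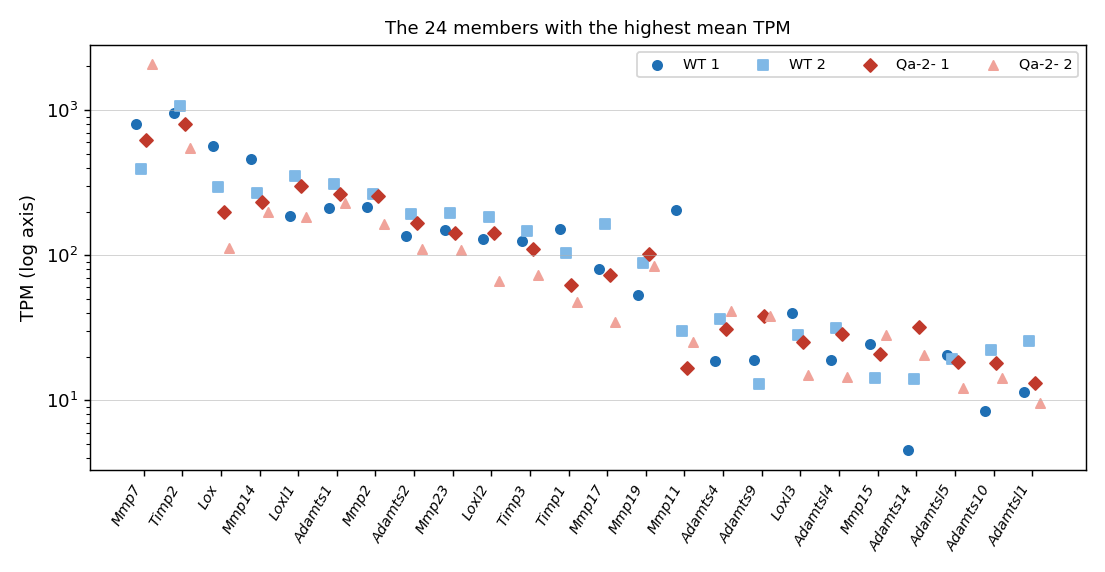
TPM (log axis) of the 24 members with the highest mean TPM, ordered by that mean from left to right, with 1 point per library for 2 WT and 2 Qa-2- mice. Mmp7 and Timp2 lead, the points of Mmp7 lie between 395 and 2080 TPM, and the single high point of Mmp11 is WT replicate 1 with 206 TPM.

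At the other end, 13 members stayed under the filter and were not tested. Mmp1b and Mmp21 had 0 counts in every library, which allows up to 0.0747 to 0.0858 CPM. Mmp20, the enamel protease, had at most 3 counts, and the neutrophil collagenase Mmp8 had 9, 2, 1 and 1 counts in WT replicates 1 and 2 and Qa-2- replicates 1 and 2. The other untested members were Mmp10, Mmp13, Mmp24, Mmp25, Mmp27, Timp4, Adamts13, Adamts16 and Adamts20, each with at most 48 counts in any library. Among these, Mmp10 had 43 and 24 counts in WT against 5 and 9 in Qa-2- uteri and Adamts16 had 31 and 22 against 6 and 1, so that the groups did not overlap. By CPM the groups also did not overlap for Mmp8 and for Timp4, with 13 and 10 counts against 0 and 3. With the Qa-2- libraries above, they did not overlap for Adamts13, with 0 and 6 against 9 and 6. The nearest counts of the groups were 2 and 1 for Mmp8 and 6 and 6 for Adamts13, where only library size set them apart. No share of such orders was computed over the genes under the filter. Among the genes tested, 25.4% had WT above and 24.5% had Qa-2- above. The remaining 42 members were tested, 13 Mmp, 3 Timp, 16 Adamts, 5 Adamtsl and 5 Lox genes.

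In the comparison of WT with Qa-2- uteri edgeR called none of the 42 tested members (0% of all tested genes were called), and the lowest adjusted p among them was 0.246. Before adjustment, 8 members with higher values in WT had a p under 0.05, 19.0% of the members against 8.09% of all genes tested. These were Lox, Loxl3, Mmp11, Mmp14, Mmp17, Mmp23, Timp1 and Timp3. Another 3 had higher values in Qa-2- uteri, 7.14% against 7.09% of all genes, and all of them were ADAMTS proteases, Adamts9, Adamts14 and Adamts15. DESeq2, run as an alternative, gave an adjusted p under 0.05 to 4 members, Lox and Timp1 with higher values in WT and Adamts9 and Adamts15 with higher values in Qa-2- uteri, where 2.79% and 2.04% of all genes were called in these directions. The number with higher values in WT at an unadjusted p under 0.05 went from 8 to 2 without Qa-2- replicate 2 (4.76% of the members against 3.07% of all genes in that fit) and to 5 without WT replicate 2 (12.2% against 6.48%). The number with higher values in Qa-2- uteri went from 3 to 7 without WT replicate 2 (17.1% against 6.5%).

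Over all 42 members the median log2 fold change, given throughout as WT over Qa-2- and for single genes with its SE, was 0.37, against 0.01 over all genes tested, with 29 members above 0 and 13 below. The families differed in their medians, at 0.72 for the 3 Timp genes, 0.72 for the 5 Lox genes, 0.53 for the 5 Adamtsl genes, 0.43 for the 13 Mmp genes and 0.09 for the 16 Adamts genes. Each tested Timp and Lox gene lay above 0, also in the other 8 fits with 4 libraries, although Loxl1 was at -0.17 without WT replicate 2 and Loxl4 at -0.012 without WT replicate 1. Above 0 were also 8 of the Mmp, 4 of the Adamtsl and 9 of the Adamts genes, among the latter Adamts3 and Adamts10, which lay below 0 with the replicate block. The median over the members was 0.03 without WT replicate 2, 0.13 without Qa-2- replicate 2 and 0.60 without Qa-2- replicate 1. Its size thus depended on single libraries, and on more than 1 of them. Both WT libraries lay above both Qa-2- libraries for 14 members (33.3% against 25.4% of all genes) and below them for 5 (11.9% against 24.5%), and the groups overlapped for 23.

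**Figure D2:**
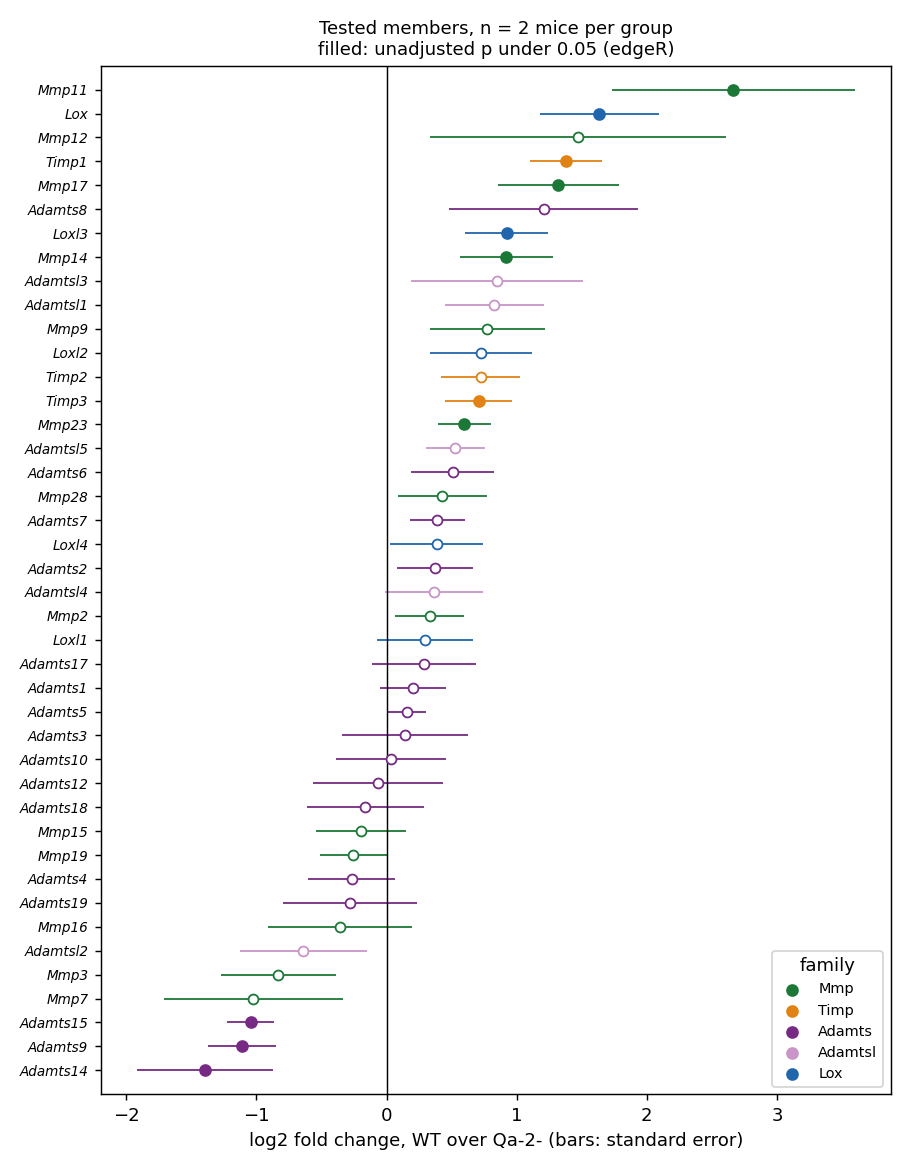
Fitted log2 fold change (WT over Qa-2-) with its standard error (bars) for the 42 tested members, coloured by family, from 2 mice per group. Filled points have an unadjusted p under 0.05 and none has an adjusted p under 0.05. The values run from 2.67 for Mmp11 to -1.40 for Adamts14.

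The libraries of a group differed from each other more in this set than in the transcriptome as a whole. Between replicates the median size of the log2 ratio was 0.76 for the members in WT and 0.52 in Qa-2- uteri, against 0.27 and 0.25 over all genes tested. In 27 of the 42 members (64.3%, against 33.0% of all genes) WT replicate 2 lay above WT replicate 1 and Qa-2- replicate 1 above Qa-2- replicate 2. This is the order of all 7 smooth muscle markers, whose summed level was 26745 and 44479 CPM in WT and 23707 and 12721 CPM in Qa-2- uteri, with no marker at 0. None of these markers had an unadjusted p under 0.05 by edgeR, DESeq2 called 2 of them higher in WT, and all 7 had log2 fold changes above 0. The part of the smooth muscle share in the values of the members was not tested. In bulk tissue, fewer cells of a type and less RNA per cell cannot be told apart.

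**Figure D3:**
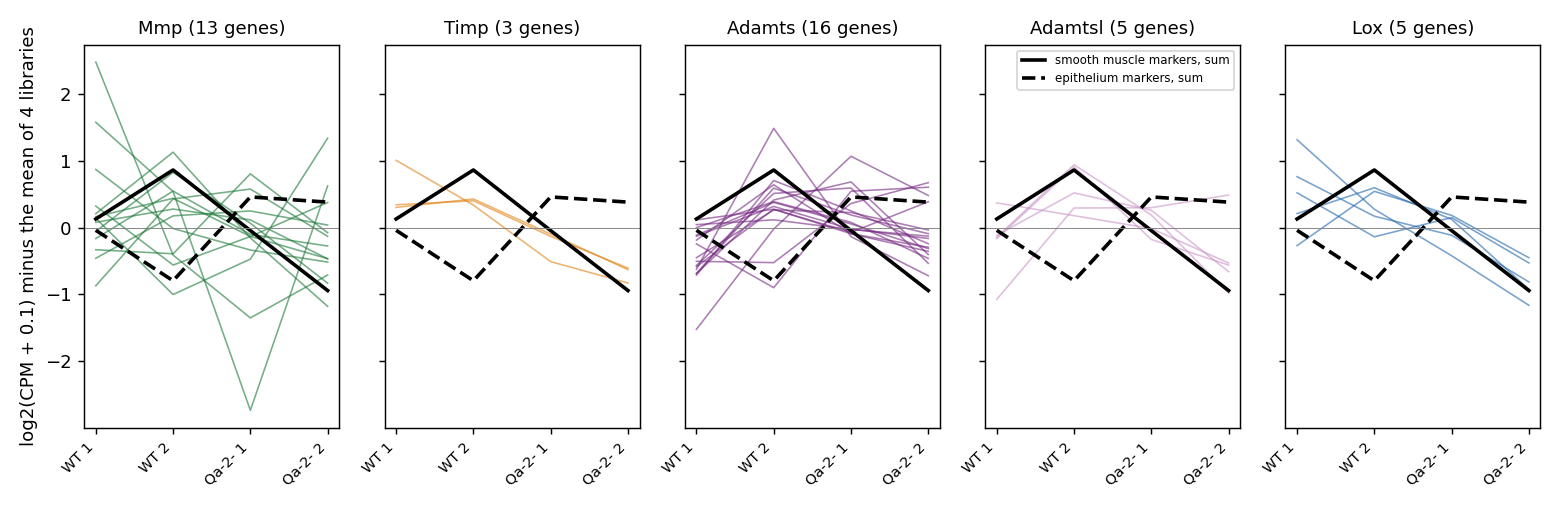
Log2 of CPM + 0.1 minus the mean of the 4 libraries for each tested member, 1 thin line per gene and 1 panel per family, with the summed smooth muscle markers (solid black) and the summed epithelium markers (dashed black) drawn the same way. Lines join the libraries for reading only. In 29 of the 42 members WT replicate 2 lies above WT replicate 1, as for the smooth muscle markers, and the Timp2 and Timp3 lines nearly coincide.

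Among the membrane-bound proteases, Mmp14 and Mmp17 had higher values in WT. Mmp14, the transmembrane MT1-MMP that cuts fibrillar collagen and activates proMMP2, had 1007 and 545 CPM in WT against 436 and 385 CPM in Qa-2- uteri. The groups did not overlap, but WT replicate 1 was 1.85 times WT replicate 2, and the fitted log2 fold change of 0.92 ± 0.36 (SE) had an adjusted p of 0.325 by edgeR. Mmp17, the MT4-MMP with a glycolipid anchor, had 196 and 371 CPM against 152 and 74.8 CPM, a log2 fold change of 1.32 ± 0.47 and an adjusted p of 0.308. Here WT replicate 2 was the high library, so the replicates of Mmp14 and Mmp17 stood in opposite order within WT. The log2 fold change of Mmp14 was 0.38 without WT replicate 1, and that of Mmp17 was 0.79 without WT replicate 2. The summed stroma and endothelium markers stood in the order of libraries of Mmp14, although 2 of the 7 stroma markers had lower values in WT. The summed smooth muscle markers stood in the order of Mmp17. The part of these cell types in both genes was not tested. Mmp15 and Mmp16, also transmembrane, had overlapping groups with log2 fold changes of -0.20 and -0.36. Mmp23, an unusual member with a signal anchor at its start, had 128 and 155 CPM in WT against 104 and 82.8 CPM, a log2 fold change of 0.60 ± 0.20 at an adjusted p of 0.302.

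Mmp11 (ENSMUSG00000000901, chromosome 10 from 75923222 to 75936496) had the largest fold change of the tested members and rested on 1 mouse. Stromelysin-3, its product, is activated inside the cell by furin and is typical of stroma in remodelling tissue. WT replicate 1 had 209.7 CPM of it and WT replicate 2 had 28.2 CPM, against 14.6 and 22.9 CPM in the Qa-2- uteri. Both WT libraries lay above both Qa-2- libraries, yet WT replicate 1 was 7.44 times its replicate. The log2 fold change was 2.67 ± 0.93 with an adjusted p of 0.306 by edgeR, and it was 0.56 without WT replicate 1. Without WT replicate 2 it was 3.48 at an adjusted p of 0.0216 (0.0216 to 0.829 over all alternatives), the 1 adjusted call among the members when a library was left out, in a fit where the lone WT library was assumed to vary like the Qa-2- group. The summed stroma markers stood at 5196 and 4354 CPM in WT and at 3414 and 2627 CPM in Qa-2- uteri, with none at 0 and with 2 of 7 higher in WT and 1 of 7 higher in Qa-2- uteri at an unadjusted p under 0.05, and their part in this result was not tested.

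The gelatinases, which cut denatured collagen and basement membrane, had overlapping groups. Mmp2 had 265 and 304 CPM in WT against 272 and 181 CPM in Qa-2- uteri, with a log2 fold change of 0.33 ± 0.26. Mmp9, gelatinase B, which leukocytes carry, had 8.64 and 16.0 CPM against 9.41 and 5.003 CPM, a log2 fold change of 0.78 ± 0.44. Beside it, the neutrophil markers summed to 8.74 and 8.83 CPM in WT and 4.37 and 6.29 CPM in Qa-2- uteri, 2 of 6 passed the filter, neither at an unadjusted p under 0.05, and the defining markers Ly6g, Camp and Ngp were at or near 0. Mmp19 and Mmp28, which are neither gelatinases nor collagenases, had log2 fold changes of -0.25 and 0.43.

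The chromosome 9 cluster, whose upstream letters are shown above, had few counts apart from Mmp7. The 9 genes lie between 7272514 and 7699585 on chromosome 9 of GRCm38, and 3 of them were tested. Mmp7 had 316 and 143 CPM in WT against 207 and 726 CPM in Qa-2- uteri. Qa-2- replicate 2 was 3.51 times its replicate and stood above the other libraries, while Qa-2- replicate 1 lay between the WT libraries. The log2 fold change of -1.02 ± 0.68 had an adjusted p of 0.508 by edgeR and was 0.15 without Qa-2- replicate 2, so its direction rested on that library. The 7 epithelium markers summed to 2085 and 1235 CPM in WT against 2948 and 2793 CPM in Qa-2- uteri, with none at 0 and with all 7 log2 fold changes below 0, 2 of them at an unadjusted p under 0.05. Set against the epithelial keratin Krt8, the TPM of Mmp7 was 0.763 and 0.612 times as high in WT and 0.327 and 1.36 times as high in Qa-2- uteri, so that the 2 Qa-2- libraries bracketed the WT libraries. The part of the epithelium in the level of Mmp7 was not tested.

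Per length, the neighbours of Mmp7 were far lower, with means of 3.37 TPM for Mmp3, 0.876 TPM for Mmp10 and 0.823 TPM for Mmp12 against 975 TPM. Mmp12, the macrophage elastase, had 4.14 and 1.96 CPM in WT against 0.113 and 2.09 CPM in Qa-2- uteri, where Qa-2- replicate 1 was the low library. Its log2 fold change of 1.47 ± 1.13 had an adjusted p of 0.567, and was 0.54 without Qa-2- replicate 1 and 4.71 without Qa-2- replicate 2. Beside it, the macrophage markers, none of them at 0, summed to 735 and 1095 CPM in WT and 692 and 487 CPM in Qa-2- uteri with 3 of 6 higher in WT at an unadjusted p under 0.05. The part of macrophages in the level of Mmp12 was not tested. Mmp3, stromelysin-1, had 1.47 and 1.41 CPM in WT against 3.35 and 1.77 CPM in the Qa-2- uteri and a log2 fold change of -0.83 ± 0.44. Mmp7 and Mmp10 carry the AP-1 core at the same distance, 63 bases before the start, in the stretches printed above, and Mmp3 and Mmp12 at 46 and 44 bases.

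**Figure D4:**
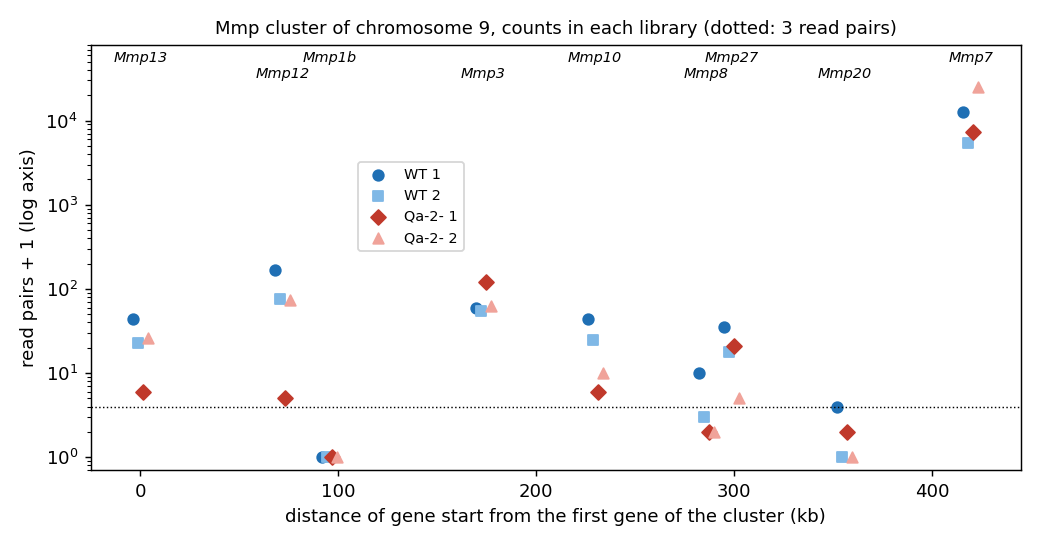
Read pairs + 1 (log axis) in each of the 4 libraries for the 9 Mmp genes of the chromosome 9 cluster, placed by the distance of the gene start from the first gene of the cluster in kb, with small sideways shifts to separate the libraries. The dotted line marks 3 read pairs. Mmp7 at the right end stands far above its neighbours, and Mmp1b is at 0 in all libraries.

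For each of the 3 tested inhibitors the lower WT library still lay above the higher Qa-2- library, an order found in 25.4% of all genes tested. The summed stroma markers were at 5196 and 4354 CPM in WT and 3414 and 2627 CPM in the Qa-2- uteri. The summed endothelium markers were at 1081 and 913 CPM and 456 and 431 CPM. Both sums stood in the same order of groups as the inhibitors. All 6 endothelium markers had that order singly, but of the 7 stroma markers 3 had it and 2 had the reverse. The part of both cell types in the Timp values was not tested. Timp1 (ENSMUSG00000001131, X chromosome from 20870166 to 20874735 in GRCm38) encodes a soluble inhibitor of most matrix metalloproteases. It had 49.6 and 31.2 CPM in WT (40.4 ± 13.1, SD, n = 2) against 17.3 and 13.8 CPM in Qa-2- uteri (15.5 ± 2.45). The log2 fold change of 1.38 ± 0.28 had an adjusted p of 0.246 by edgeR and of 0.00296 by DESeq2 (0.00296 to 0.829 over all alternatives), and lay between 0.98 and 1.67 when each library was left out. Timp2 had 1359 and 1417 CPM against 979 and 703 CPM, with a log2 fold change of 0.72 ± 0.30 and an adjusted p of 0.347. Timp3, which is bound to the matrix and also blocks several ADAMTS enzymes, had 372 and 406 CPM against 282 and 195 CPM, a log2 fold change of 0.71 ± 0.26 and an adjusted p of 0.313. The span of Cep295nl, which had 364 counts over the 4 libraries, overlaps that of Timp2 on the same strand. Pairs on exons of both genes would be counted for neither, and the overlap of exons was not examined.

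The balance of proteases and inhibitors, taken as the summed TPM of all 22 Mmp genes over that of all 4 Timp genes, was 1.64 and 1.10 in WT and 1.53 and 4.07 in Qa-2- uteri. The value of 4.07 came from Mmp7 in Qa-2- replicate 2. Without Mmp7 the ratio was 0.983 and 0.799 in WT and 0.891 and 0.976 in Qa-2- uteri, and the groups overlapped. Mmp14 over Timp2, the pair that meets on proMMP2, was 0.484 and 0.252 in WT and 0.291 and 0.358 in Qa-2- uteri, again with overlap. The groups did not overlap in 2 other ratios to Timp2. Mmp2 over Timp2 was 0.225 and 0.248 in WT and 0.321 and 0.298 in Qa-2- uteri, and Timp1 over Timp2 was 0.160 and 0.0965 in WT and 0.0774 and 0.0861 in Qa-2- uteri. These ratios were not tested.

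All 3 members with higher values in Qa-2- uteri at an unadjusted p under 0.05 were ADAMTS proteases, although 9 of the 16 tested ADAMTS genes had log2 fold changes above 0. Adamts15 (ENSMUSG00000033453, chromosome 9 from 30899155 to 30922452) encodes an enzyme that cuts versican and aggrecan. It had 17.02 and 16.8 CPM in WT (16.9 ± 0.165, SD, n = 2) against 31.1 and 38.6 CPM in the Qa-2- uteri (34.9 ± 5.32), and the WT libraries nearly coincided. Its log2 fold change of -1.04 ± 0.18 had an adjusted p of 0.246 by edgeR and of 0.00275 by DESeq2 (0.00275 to 0.829 over all alternatives), and lay between -1.20 and -0.88 when each library was left out. Adamts9 (ENSMUSG00000030022, chromosome 6 from 92772699 to 92943492) encodes a versican-cutting protease of vessels and developing tissue. It had 104.5 and 66.3 CPM in WT (85.4 ± 27.0) against 180.5 and 188 CPM in Qa-2- uteri (184 ± 5.48). With a log2 fold change of -1.11 ± 0.26 it had an adjusted p of 0.255 by edgeR and of 0.00897 by DESeq2 (0.00897 to 0.829 over all alternatives), and lay between -1.50 and -0.82 with each library left out. The direction of Adamts9 and Adamts15 was opposite to that of all 6 endothelium markers, none of them at 0, which summed to 1081 and 913 CPM in WT against 456 and 431 CPM in the Qa-2- uteri and each had an unadjusted p under 0.05. Both genes had the direction of all 7 epithelium markers, none of them at 0, which summed to 2085 and 1235 CPM in WT against 2948 and 2793 CPM in the Qa-2- uteri and of which 6 did not overlap between groups. The part of the endothelium and of the epithelium in these values was not tested.

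Of the other tested enzymes that cut proteoglycans, Adamts1, Adamts4 and Adamts8 had groups that overlapped. Adamts1, which is known for its part in ovulation, had 409.6 and 558 CPM in WT against 441 and 400.1 CPM in the Qa-2- uteri, and a fold change on the log2 scale of 0.20 ± 0.25. Adamts4 had 32.8 and 59.7 CPM against 46.9 and 64.5 CPM, a log2 fold change of -0.27 ± 0.33. Adamts5 varied little anywhere, with values between 36.1 and 42.8 CPM over the 4 libraries and a log2 fold change of 0.16 ± 0.15. Adamts8 had 2.94 and 13.0 CPM in WT against 4.17 and 2.75 CPM, and its log2 fold change of 1.21 ± 0.72 was -0.24 without WT replicate 2. Of the 7 enzymes of this kind 6 were tested, their median was -0.06, and 2 had higher values in Qa-2- uteri at an unadjusted p under 0.05, where 7.09% of all genes did.

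The procollagen N-proteinases, which remove the amino-terminal propeptide of fibrillar procollagens, differed among themselves. Adamts2 had 466 and 609.9 CPM in WT against 492 and 338 CPM in Qa-2- uteri, with overlapping groups and a log2 fold change of 0.37 ± 0.29. Adamts14 had 8.62 and 24.6 CPM against 52.5 and 34.9 CPM, so that the groups did not overlap, with a log2 fold change of -1.40 ± 0.52 and an adjusted p of 0.317, and a range of -2.34 to -0.85 when each library was left out. Adamts3 had a log2 fold change of 0.14 ± 0.49, which was -0.74 without WT replicate 2 and -0.092 without Qa-2- replicate 2. Among these 3 enzymes Adamts2 held most of the level, with a mean of 152 TPM against 17.8 TPM for Adamts14 and 12.3 TPM for Adamts3.

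The remaining tested ADAMTS genes, Adamts6, Adamts7, Adamts10, Adamts12, Adamts17, Adamts18 and Adamts19, had log2 fold changes between -0.28 and 0.51 and adjusted p-values by edgeR between 0.429 and 0.974. Of these, Adamts7, which cuts cartilage oligomeric matrix protein, had groups that did not overlap, with 11.9 and 13.3 CPM in WT against 10.3 and 8.92 CPM in Qa-2- uteri.

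The ADAMTS-like proteins, which bind fibrillin microfibrils or other matrix parts, had 4 of 5 values above 0 and none at an unadjusted p under 0.05. Adamtsl1 had 53.1 and 112 CPM in WT against 52.7 and 40.3 CPM in Qa-2- uteri, with a log2 fold change of 0.83 ± 0.38 and an adjusted p of 0.373, which was 0.19 without WT replicate 2. Its span overlaps on the same strand that of Sh3gl2, which had 1384 counts over the 4 libraries, and the overlap of exons was not examined. Adamtsl4 had 29.1 and 45.2 CPM against 37.8 and 19.9 CPM, and Adamtsl5 had 35.4 and 31.0 CPM against 27.1 and 18.9 CPM. The groups overlapped for Adamtsl4 and did not for Adamtsl5, with log2 fold changes of 0.37 ± 0.38 and 0.53 ± 0.23. Adamtsl3 was near the filter, with 0.897 and 2.01 CPM against 1.16 and 0.457 CPM. Adamtsl2 was the 1 member of the family below 0, at -0.64 ± 0.49. It was at -0.13 without WT replicate 1 and at -1.50 without WT replicate 2.

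With all 4 libraries each lysyl oxidase had a log2 fold change above 0, and Lox (ENSMUSG00000024529), which crosslinks collagen and elastin, had the largest. Lox had 985 and 479 CPM in WT (732 ± 358, SD, n = 2) against 295 and 176 CPM in Qa-2- uteri (236 ± 84.1), a ratio of means of 3.10. Its log2 fold change of 1.63 ± 0.46 had an adjusted p of 0.275 by edgeR and of 0.00597 by DESeq2 (0.00597 to 0.829 over all alternatives), and lay between 0.997 and 2.06 when each library was left out. Loxl3 had 67.1 and 44.5 CPM against 36.5 and 22.4 CPM, a log2 fold change of 0.92 ± 0.32 and an adjusted p of 0.305, and a range of 0.57 to 1.31 when each library was left out. In both genes WT replicate 1 was the highest library and Qa-2- replicate 2 the lowest, and the groups did not overlap. The summed stroma markers (5196 and 4354 CPM in WT, 3414 and 2627 CPM without Qa-2) stood in the same order of libraries. The summed endothelium markers (1081 and 913 CPM, 456 and 431 CPM) did so too. Of the 7 stroma markers, 2 had both Qa-2- libraries above both WT libraries. The part of both cell types in the lysyl oxidase values was not tested.

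Loxl1, which is tied to elastic fibre assembly, had 225 and 396 CPM in WT against 308 and 198 CPM in Qa-2- uteri. The groups overlapped, with a log2 fold change of 0.29 ± 0.37. Loxl2 had 258 and 337 CPM against 243 and 117 CPM, with groups that did not overlap and a log2 fold change of 0.72 ± 0.39 at an adjusted p of 0.428, which was 0.29 without Qa-2- replicate 2. Loxl4 was the least abundant of the family, with a mean of 6.61 TPM and a log2 fold change of 0.38 ± 0.36. Within a library, Lox over Loxl1 in TPM was 3.02 and 0.835 in WT and 0.662 and 0.614 in Qa-2- uteri, so that the groups did not overlap and WT replicate 1 stood far above the other libraries.

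**Figure D5:**
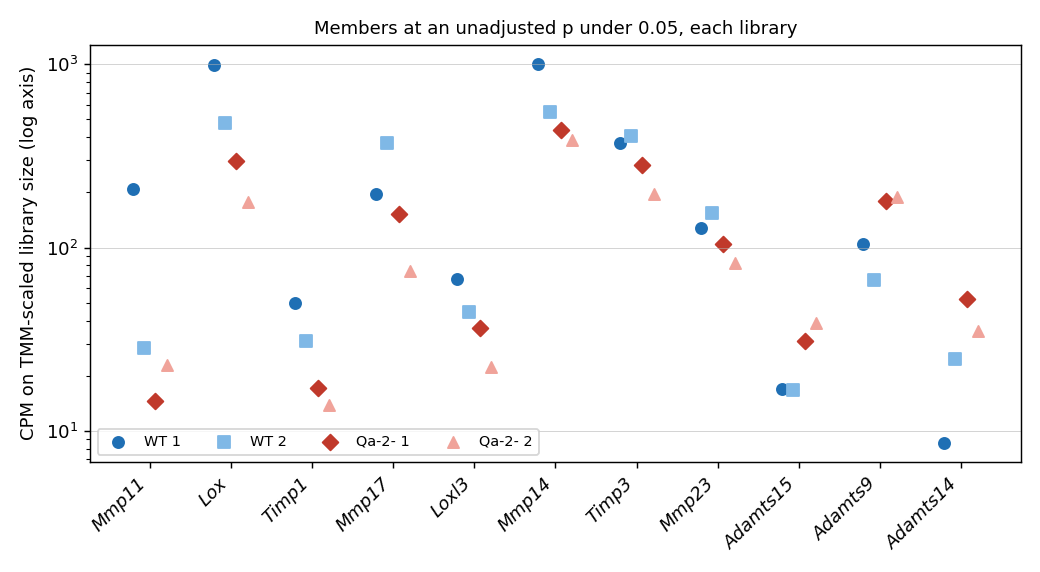
CPM on TMM-scaled library sizes (log axis) in each library for the 11 members with an unadjusted p under 0.05, ordered from the largest to the smallest fitted log2 fold change, for 2 WT (blue) and 2 Qa-2- (red) mice. In Mmp11 the 2 WT points lie at 209.7 and 28.2 CPM, whereas in Adamts15 they lie at 17.02 and 16.8 CPM, below the Qa-2- points at 31.1 and 38.6 CPM.

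The genes around this set were read from fixed lists, and edgeR called none of their genes. Over all genes tested, 8.09% had higher values in WT at an unadjusted p under 0.05 by edgeR and 7.09% had lower ones. DESeq2 called 2.79% and 2.04% in these directions. The counts in these lists and in the marker lists stand beside those shares. In the plasminogen system, which makes plasmin, an activator of several proMMPs, 8 of 11 genes were tested, the median log2 fold change was 0.41, and 0 had higher values in Qa-2- uteri at an unadjusted p under 0.05. The activator urokinase, Plau, at 1.20 ± 0.28, and the protease inhibitor Serpine2, at 1.48 ± 0.34, had higher values in WT at that level and were called by DESeq2. Serpine2 had 319 and 170.2 CPM in WT against 93.9 and 81.9 CPM in Qa-2- uteri, so that the groups did not overlap.

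Of 14 other regulators of matrix metalloproteases 12 were tested, with a median of 0.18. Thbs1 and Thbs2, thrombospondins that bind proteases and growth factors, were the 2 with higher values in WT at an unadjusted p under 0.05, at 1.68 ± 0.19 and 1.76 ± 0.47, and were also the 2 called by DESeq2. Thbs1 had 208 and 229 CPM in WT against 74.0 and 61.9 CPM in Qa-2- uteri, with an adjusted p of 0.228 by edgeR. The largest sizes belonged to Lcn2, a carrier protein that binds MMP9, at -2.55 ± 1.07, and to Tfpi2, an inhibitor of serine proteases, at 1.78 ± 0.71. Lcn2 had 541 and 331 CPM in WT against 462 and 4641 CPM in the Qa-2- uteri, and its high library, Qa-2- replicate 2, was also the high library of Mmp7. Without that library the log2 fold change of Lcn2 was -0.088, and that of Tfpi2 was 0.28 without WT replicate 1, so that 1 library decided the size of each.

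Procollagen processing and crosslink partners were tested for 15 of 16 genes, with a median of 0.46. The 3 with higher values in WT at an unadjusted p under 0.05, P4ha1, P4ha3 and Plod3, hydroxylate proline or lysine of procollagen, with log2 fold changes of 0.82, 0.89 and 0.51, and DESeq2 called 0. P3h2, a prolyl 3-hydroxylase, had the largest size at 0.91 ± 0.38. Among the 13 elastic fibre genes, all tested, the median was 0.26, with Fbln5 and Efemp2, fibulins needed for elastic fibre assembly, higher in WT and Fbln1 higher in Qa-2- uteri at an unadjusted p under 0.05. Fbln5 had 126 and 135 CPM in WT and 60.4 and 40.1 CPM without Qa-2 (1.38 ± 0.24) and Fbln1 had 411 and 356 CPM against 713 and 963 CPM (-1.13 ± 0.27), and DESeq2 called both. Elastin itself, Eln, had a log2 fold change of -0.19 ± 0.42.

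Of 13 ADAMTS substrates and cofactors 9 were tested, with a median of 0.51. Reln, which ADAMTS enzymes cut, had 124 and 63.7 CPM in WT against 23.2 and 17.3 CPM in the Qa-2- uteri (2.21 ± 0.37), and Vwf, the substrate of Adamts13, had 101 and 92.8 CPM against 55.8 and 51.1 CPM (0.86 ± 0.15). These were the 2 genes at an unadjusted p under 0.05 and the 2 called by DESeq2, both with higher values in WT. Comp had the next largest size at 1.51 ± 0.78, which was 3.24 without Qa-2- replicate 1 and 0.74 without Qa-2- replicate 2. Versican, Vcan, the substrate of Adamts1, Adamts9 and Adamts15, had 58.3 and 97.9 CPM in WT against 112 and 64.4 CPM, with overlapping groups and a log2 fold change of -0.18 ± 0.37.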

How the data were processed

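RNA sequencing of uteri at E18.5 was analysed for 2 WT and 2 Qa-2- mice, with groups and replicate numbers from the sample labels. The authors deposited raw counts, which are numbers of read pairs for each of 55421 genes. Per the file headers, a pair counted when it lay on the reverse strand of an exon of GRCm38, both of its ends were mapped and its mapping quality was 3 or more. Pairs with several positions or several genes were left out, which lowers counts of genes with close copies. The submitters' processing notes name STAR 2.7.3a, featureCounts 2.0.0 and GRCm38.p6. Read quality was checked by the authors with ngs-bits. Gene symbols came from GENCODE M21, which holds 55240 of the identifiers.

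CPM are on TMM-scaled library sizes, and TPM were computed from the counts and the gene lengths in the files. The filter as the study words it (1 CPM in 2 or more libraries) kept 14492 genes, which were compared with edgeR 4.0.16 in R 4.3.3 by glmQLFit and glmQLFTest, with the defaults of this version (legacy fit). On totals without TMM scaling, this filter did not give the gene number stated in the study, whereas edgeR's filterByExpr, used as an alternative, did, with 17210 genes. The text of the study names no test for the transcriptome. Benjamini-Hochberg adjustment ran over all genes kept. Standard errors were taken from the log2 fold change and the F statistic, as the size of the former over the root of the latter. In both groups the libraries differed by more than sampling noise, with a mean chi-square of 188.4 for a gene in WT and of 117.8 in Qa-2- uteri. The fit was checked on simulated data with known answers. Alternatives were DESeq2 1.42.0, other size factors, other filters, a replicate block, edgeR's newer fit (legacy set to FALSE) and leaving out each library.

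Named are the members with an unadjusted p under 0.05, in each family the 3 with the highest mean TPM and the 2 with the largest size of log2 fold change, and in each pathway list the 2 with the largest size. Other genes with values, among them the other Mmp, Adamts, Adamtsl and Loxl genes, Thbs1, Thbs2, Plau, P4ha1, Plod3, Efemp2, Vwf, Eln and Vcan, were picked once their values were known. The members, the pathway lists and the marker lists were chosen with earlier results of these data known. The proteome and the other experiments of the study are not analysed here. A gene of the pathway lists is not reported here.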

Additional observations from a re-analysis of the deposited data

How the results depend on the processing

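Of the 42 tested members, 40 kept their direction in all 8 fits with 4 libraries. The exceptions were Adamts10, at -0.064 with library totals alone, -0.094 with the replicate block and -0.092 with the crossed pairing, and Adamts3, at -0.0062 with the replicate block and -0.0012 with the crossed pairing. DESeq2 called 404 genes with higher values in WT and 296 with lower ones, 4 members among them. With edgeR and no filter, 47 genes were called higher in WT and 14 lower, against 0 and 0 with the filter, and 14 of 53 members had higher values in WT at an unadjusted p under 0.05 (26.4% against 5.79% of all genes in that fit).

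The labels do not say whether the replicate numbers 1 and 2 pair the samples. The deviations of same-numbered samples had a correlation of -0.37. With 2 samples per group this value cannot show whether same-numbered samples were handled together. The replicate block called 2 genes higher in WT, gave 3 members with higher values in WT at an unadjusted p under 0.05 (7.14% against 4.95%) and changed no other call. The crossed pairing, an alternative chosen after seeing the data, gave 13 such members (31.0% against 12.9%). Over all genes, an unadjusted p under 0.05 was reached by 2199 without a block, 1331 with it and 3625 with the crossed pairing.

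With each library left out in turn, the lone library being assumed to vary like the other group, calls higher in WT ranged from 0 to 45 genes, genes at an unadjusted p under 0.05 from 776 to 2242, members called from 0 to 1, members with higher values in WT at an unadjusted p under 0.05 from 2 to 8, those with higher values in Qa-2- uteri from 3 to 7, and the median from 0.029 to 0.60. The members without overlap ranged from 24 to 35, where groups of 1 overlap less often by construction. The share of all genes without overlap was not computed for these fits, so this range has no background to be read against. These fits turned the direction of 15 members, whose log2 fold changes ranged from -1.73 to 0.15 for Mmp7, -0.61 to 0.0037 for Mmp19, -0.73 to 0.18 for Mmp15, -1.19 to 0.14 for Mmp16, -0.040 to 0.38 for Adamts1, -0.77 to 0.073 for Adamts4, -0.74 to 0.51 for Adamts10, -0.74 to 0.66 for Adamts3, -0.71 to 0.60 for Adamts12, -0.24 to 1.89 for Adamts8, -0.94 to 0.37 for Adamts19, -0.60 to 0.15 for Adamts18, -0.028 to 0.90 for Adamtsl4, -0.17 to 0.64 for Loxl1 and -0.012 to 0.76 for Loxl4. The cause was not tested. At this depth, 1 CPM on the unscaled totals, the filter, stands for 33.3 to 41.0 read pairs, which bears most on the 13 members under the filter.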

Other observations

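Some members lie beside each other or near the exchanged H2 segment. Adamts8 and Adamts15 are 20.1 kb apart on chromosome 9 and had log2 fold changes of 1.21 ± 0.72 and -1.04 ± 0.18, and WT replicate 2 was 4.44 times WT replicate 1 for Adamts8 and 0.986 times it for Adamts15. Adamts1 and Adamts5, 53.1 kb apart on chromosome 16, had log2 fold changes of 0.20 and 0.16. Adamts10 ends 1.87 Mb before H2-Q6 on chromosome 17, had 25.6 and 62.2 CPM in WT and 47.0 and 38.7 CPM without Qa-2, and had a log2 fold change of 0.03 ± 0.42, with groups that overlapped. The difference between neighbours was not tested.

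Markers of cells that can come with the dissected uterus varied from mouse to mouse. The 5 yolk sac markers summed to 5.68 and 43.6 CPM in WT and to 484.6 and 22.4 CPM in Qa-2- uteri, the 6 trophoblast markers to 0.374 and 21.1 CPM in WT and to 3.33 and 0.143 CPM in Qa-2- uteri, and the 5 uterine NK cell markers to 81.3 and 5.04 CPM in WT and to 3.18 and 9.32 CPM in Qa-2- uteri, mostly from Prf1 in WT replicate 1. The 5 mast cell markers lay between 48.4 and 83.6 CPM, and the 5 mesothelium markers at 127 and 136 CPM in WT against 104 and 58.1 CPM in Qa-2- uteri, with 4 of 5 higher in WT at an unadjusted p under 0.05. The mesothelium sum is led by Wt1, with a log2 fold change of 0.18 and overlapping groups, and the median log2 fold change of the 5 markers was 3.42, with 3 called by DESeq2. The part of these cells in the values of the members was not tested.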
